A study of Mus musculus with 2 samples.

Results

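The SLC25 family of mitochondrial solute carriers was compared between liver RNA of 2 groups of mice. Members were the genes whose single annotated symbol starts with Slc25a, together with the uncoupling proteins Ucp1 to Ucp3 and the outer membrane relatives Mtch1 and Mtch2. Slc25a15, Slc25a17 and Slc25a20 were left out of this set. The rule found 98 probe sets for 45 genes, out of 45101 probe sets for 18193 named genes on the array. Of the 45 genes, 37 lay above the signal floor used here, a mean signal of 19.4 over both arrays, and the other 8 lay below it. Slc25a21, Slc25a43 and Ucp2 are not analysed here.

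All mice were male C57Bl/6J, aged 9 weeks on arrival, and were fed a diet made low in n-3 polyunsaturated fatty acids by using sunflower oil in place of soybean oil. The whole feeding period lasted 112 days, per the labels' protocols. The DEF/FOS group stayed on the depleted diet, whose n-6/n-3 ratio was 127.2, and drank fructooligosaccharides, a fermentable fibre, at 0.25 g per day for the last 10 days. The DEF/CT group was switched to the soybean oil diet, with a ratio of 6.9, for those 10 days. The labels list 8 mice for each group but give 4 to 8 mice per pool, so the exact size of these pools is not known here. Each pool was put on 1 Affymetrix array, so the spread between animals and arrays cannot be measured and no difference below has a test. The groups differed in both the fibre and the oil, and these cannot be told apart.

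Carriers of this family are small proteins, most of them in the inner mitochondrial membrane, that exchange nucleotides, carboxylates, amino acids, cofactors and ions between the matrix and the cytosol. In hepatocytes they connect mitochondrial oxidation with urea synthesis, gluconeogenesis and fatty acid synthesis, whose steps are divided between the compartments. They are made in the cytosol, pass the outer membrane through the TOM complex and are inserted into the inner membrane by the TIM22 complex.

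Most members had similar signals in both pools. The median log2 difference, DEF/FOS minus DEF/CT, was 0.04 over the 37 genes, beside -0.0004 over all genes above the floor. Of the 37 genes, 23 (62.2%) were above 0 and 14 below, where 49.9% of all genes were above 0. Adenine nucleotide translocase 1, Slc25a4, stood farthest from 0 and was 2.98-fold lower in DEF/FOS. The S-adenosylmethionine carrier Slc25a26 was 1.73-fold lower, the coenzyme A carrier Slc25a42 1.48-fold lower and Slc25a30, a relative of the uncoupling proteins, 1.41-fold lower. The dicarboxylate carrier Slc25a10 was 1.39-fold higher and the mitochondrial iron importer Slc25a37 1.34-fold higher.

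The sequences upstream of 4 members are shown. Slc25a4 and its close paralogue Slc25a5 had the widest gap of the paralogue pairs. In Slc25a30 and Slc25a10, the probe sets above the floor all had the same sign. The differences of these last genes also exceeded the spread between probe sets described below. Each sequence is the 250 bases before the annotated start, from RefSeq on GRCm38.p6, written 5′ to 3′ on the strand of the gene. Capitals mark matches on either strand to any of the motifs described after them.
Slc25a4, chr8:46211063-46211312, minus strand: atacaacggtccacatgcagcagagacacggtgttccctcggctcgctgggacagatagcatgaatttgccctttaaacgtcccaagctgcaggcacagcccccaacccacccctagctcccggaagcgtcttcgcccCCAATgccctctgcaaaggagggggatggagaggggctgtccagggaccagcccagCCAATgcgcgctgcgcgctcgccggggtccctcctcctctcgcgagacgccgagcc
Slc25a5, chrX:36795347-36795596, plus strand: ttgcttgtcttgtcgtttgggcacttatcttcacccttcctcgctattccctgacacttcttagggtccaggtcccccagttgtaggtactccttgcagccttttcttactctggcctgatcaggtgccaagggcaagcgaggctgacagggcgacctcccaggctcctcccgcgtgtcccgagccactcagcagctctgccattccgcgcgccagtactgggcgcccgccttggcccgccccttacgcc
Slc25a30, chr14:75787038-75787287, minus strand: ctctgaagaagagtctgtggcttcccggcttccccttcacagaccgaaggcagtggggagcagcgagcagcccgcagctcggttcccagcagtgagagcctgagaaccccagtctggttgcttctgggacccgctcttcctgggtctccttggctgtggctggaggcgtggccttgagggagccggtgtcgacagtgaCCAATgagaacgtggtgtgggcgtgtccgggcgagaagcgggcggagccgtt
Slc25a10, chr11:120491587-120491836, plus strand: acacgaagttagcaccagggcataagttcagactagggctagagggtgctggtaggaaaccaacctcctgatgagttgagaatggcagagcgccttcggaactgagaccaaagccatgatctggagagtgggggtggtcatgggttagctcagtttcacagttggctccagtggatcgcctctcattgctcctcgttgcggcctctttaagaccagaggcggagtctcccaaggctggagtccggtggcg
The motifs searched, on both strands, were the nuclear receptor half-site AGGTCA, the E-box CACGTG, the CCAAT box (CCAAT), the NRF1 motif and the MEF2 motif, which do not contain one another. Slc25a4 had 2 CCAAT matches, Slc25a30 had 1, and Slc25a5 and Slc25a10 had 0 matches to any of the motifs in this window. RefSeq entries matched 35 of the 45 members, with 44 promoter entries. CCAAT was in 19 of these 44 entries (43.2%), against 33.8% of all 32851 entries. CACGTG was in 7 (15.9%) against 6.02%, with the citrate carrier Slc25a1 and the aspartate/glutamate carrier Slc25a13 among its genes. AGGTCA was in 7 (15.9%) against 14.0%, the NRF1 motif in 3 (6.82%) against 3.74% and the MEF2 motif in 0 against 2.92%. The family entries had a median GC content of 58.6%, against 52.4% over all entries, and its part in these shares was not tested. The matches describe letters and not binding.

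The measurements were MAS5 signals, a linear intensity per probe set that the authors scaled to a trimmed mean of 100.0 on both arrays. Each gene was read from the probe set with the highest mean signal, and its log2 difference was centred on the median over probe sets above the floor. The median signal over probe sets was 19.6 in DEF/FOS and 21.9 in DEF/CT. The 3-prime to 5-prime signal ratio of the actin control was 1.97 and 2.16 and that of the Gapdh control was 0.720 and 0.737. Hepatocyte markers had a median difference of -0.04 over 10 genes, with summed signals of 67713 and 71043. In bulk RNA, fewer cells of a type and less RNA per cell cannot be told apart. A signal of one probe set is not comparable with that of another, so no gene's level is set against another's. Summed signals of a marker list serve only to set one pool beside the other.

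**Figure D1:**
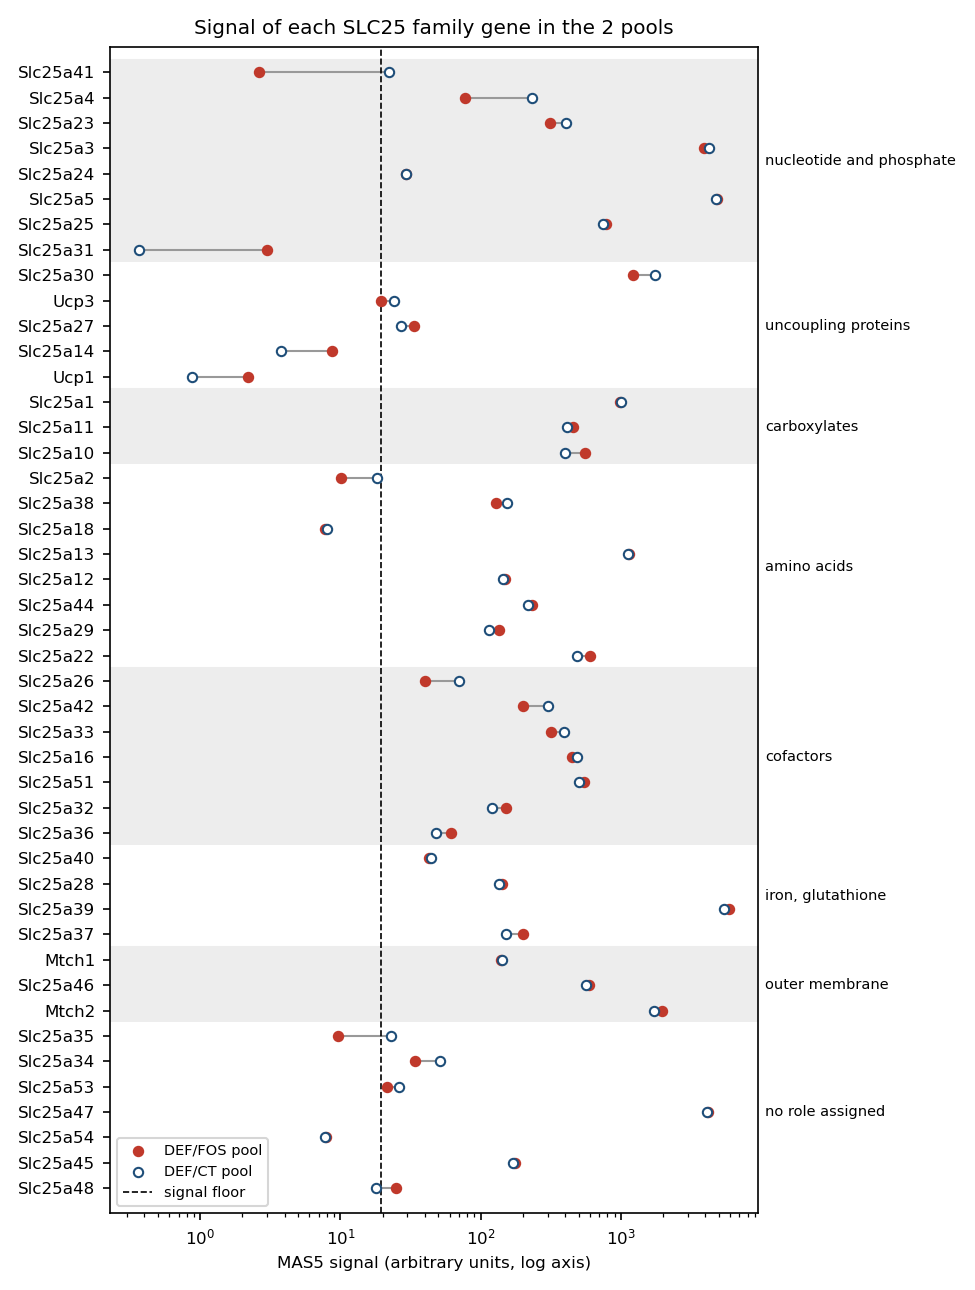
MAS5 signal (log axis, arbitrary units) of the representative probe set of each of the 45 family genes in the DEF/FOS pool (filled) and the DEF/CT pool (open), 1 array each, grouped by role, with the floor of 19.4 dashed. Most pairs nearly coincide, while Slc25a4 is at 77.5 against 233.

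Because there is 1 array per group, the SD of differences between probe sets of the same gene served as a measure of technical noise. Its log2 value was 0.57 at signals from 19.4 to 37.4, 0.45 up to 84.3, 0.33 up to 235 and 0.22 above, and it leaves out animals and arrays. In the family itself it was 0.33 over the 14 genes with more than 1 probe set above the floor. For the SD, genes were placed in a range by the mean over their probe sets, but for the comparison by their brightest one. A gene with dimmer probe sets can thus be set against too narrow an SD. Against the SD of their own signal range, 4 members (10.8%) were higher in the DEF/FOS pool by more than 1 SD and 7 (18.9%) lower. Among all 11163 genes above the floor these shares were 16.5% and 16%, so the family's share of higher genes was below and its share of lower genes slightly above the background. The higher members were Slc25a10, Slc25a22, Slc25a32 and Slc25a37, and the lower ones Slc25a4, Slc25a23, Slc25a26, Slc25a30, Slc25a33, Slc25a34 and Slc25a42. The other 26 members lay within 1 SD.

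At a difference of at least 1.5-fold, 0 of the 37 members were higher in the DEF/FOS pool, where 6.75% of all genes were. At the same threshold 2 members (5.41%), Slc25a4 and Slc25a26, were lower, where 7.82% of all genes were. Slc25a4 alone was at least 2-fold lower, against a background of 2.19%, and 0 members were at least 2-fold higher, against 1.74%. Over 37 members these shares lie near the background. The SD of the differences over the members was 0.40, or 0.31 without Slc25a4, beside 0.48 over all genes.

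**Figure D2:**
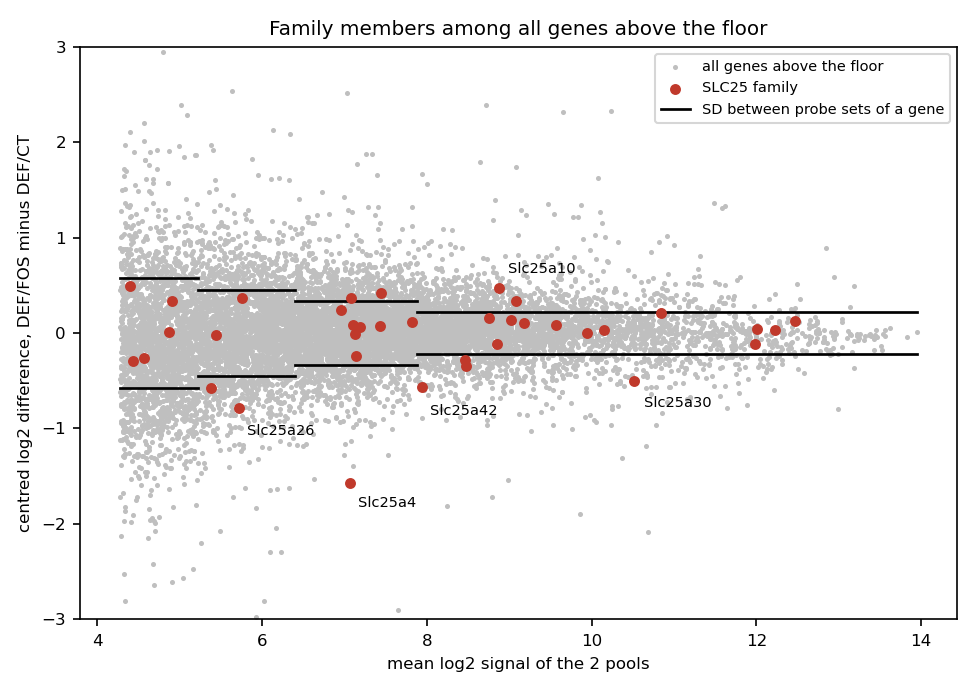
Centred log2 difference (DEF/FOS minus DEF/CT) against mean log2 signal for the 11163 genes above the floor (grey) and the 37 family members (red). Black lines give the SD between probe sets of a gene in each signal range, from 0.57 at the lowest to 0.22 at the highest. The vertical axis ends at 3 and 13 genes lie outside it. Most members lie inside the lines and Slc25a4 at -1.57 lies farthest below them.

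Among carriers of adenine nucleotides and phosphate, Slc25a4 had signals of 77.5 in DEF/FOS and 233 in DEF/CT. It encodes the ADP/ATP translocase typical of heart and skeletal muscle. Its other 2 probe sets above the floor read 57.7 against 166 and 51.2 against 232, so all 3 were lower in DEF/FOS, with log2 differences from -2.17 to -1.51. All 3 carry a suffix for probe sets that match several transcripts or may cross-hybridise. The other probe set, without that suffix, lay below the floor at 0.414 and 5.14, so Slc25a4 has no value above the floor once suffixed probe sets are left out. Slc25a5, the ADP/ATP translocase of most other tissues, liver included, had 4836 in DEF/FOS and 4769 in DEF/CT, a log2 difference of 0.04. Its 8 probe sets ran from -0.20 to 0.29, with 4 above 0 and 4 below. The difference of Slc25a4 was 1.61 log2 units away from that of Slc25a5, the widest gap of 9 paralogue pairs compared.

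Skeletal muscle markers moved with Slc25a4. Of the 20 markers, 17 lay above the floor and all 17 were lower in DEF/FOS by 1.5-fold or more, where 7.82% of all genes were. Their median difference was -2.98, or -2.48 when values under the floor were raised to it. Many of the 17 passed the floor only through their signal in DEF/CT, so the floor partly sets this count. With no floor, 1 of the 20 markers was above 0 and their median was -3.19. Their summed signal was 309.8 in DEF/FOS and 3217 in DEF/CT, and 13 of 20 were below the floor in the first and 1 in the second. Skeletal actin, Acta1, read 16.9 against 677 and was at least 34.5-fold lower. The part of muscle RNA in the difference of Slc25a4 was not tested. Other members known from muscle are set beside it. Slc25a12, the aspartate/glutamate carrier of muscle and brain, had 149 in DEF/FOS and 144 in DEF/CT. Ucp3, the uncoupling protein of muscle, read 19.4, just below the floor, against 24.1.

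The other carriers of this role were close to 0, except for 1. The phosphate carrier Slc25a3, which supplies ATP synthase, had 3892 in DEF/FOS and 4250.4 in DEF/CT, and its dimmer probe set had the opposite sign. The calcium-regulated ATP-Mg/phosphate carrier Slc25a23 had 314 against 403, a difference of -0.34. Its relatives Slc25a25, with 778 against 741, and Slc25a24, with 29.1 against 29.3, differed by 0.08 and 0.01. Slc25a25 had 2 further probe sets of opposite sign, at -0.05 and -0.35. By the brightest probe sets, Slc25a23 was 1.27-fold lower while both relatives were nearly level. Slc25a23 had only 1 probe set, and Slc25a24 lay at signals where the SD between probe sets was 0.57. The contrast between these relatives therefore depends on the probe set. Slc25a41, another relative, and Slc25a31, the testis translocase, lay below the floor, at 2.63 against 22.3 and 3.01 against 0.369.

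Among the uncoupling proteins and their relatives, Slc25a30 had 1224 in DEF/FOS and 1749 in DEF/CT. Its other 3 probe sets above the floor read 540.3 against 832, 533 against 767 and 134 against 182. All 4 were lower in DEF/FOS, with log2 differences from -0.61 to -0.42 and an SD of 0.08 between them. Besides Slc25a4, this was the only member with more than 1 probe set above the floor that was lower in all of them. Slc25a27, another relative of the uncoupling proteins, had 33.6 against 26.8, and Slc25a14 lay below the floor at 8.63 and 3.75. Ucp1, the uncoupling protein of brown fat, lay far below the floor with 2.19 and 0.869. Of 9 fat cell markers with a probe set, 4 lay above the floor, among them Elovl3, which hepatocytes also express.

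Carriers of di- and tricarboxylates, which link the citric acid cycle with gluconeogenesis and lipid synthesis, had differences between 0.01 and 0.47. Slc25a10, the exchanger of malate and succinate for phosphate, had 553 in DEF/FOS and 402 in DEF/CT. Its other probe set read 293 against 216, and the differences of 0.47 and 0.45 were nearly equal. Slc25a11, the oxoglutarate/malate carrier of the malate-aspartate shuttle, had 455 against 412, a difference of 0.16. Slc25a1, which exports citrate for fatty acid synthesis, had 987 against 993. Of the 3 carriers, only Slc25a10 differed by more than the spread between probe sets.

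Most amino acid carriers were near 0 as well. The glutamate carrier Slc25a22 had 606 in DEF/FOS and 486 in DEF/CT, 1.26-fold higher and beyond the spread of its range. Slc25a13, citrin, the aspartate/glutamate carrier of the liver, which serves urea synthesis, had 1144 against 1132. Slc25a12, its paralogue given above, had a second probe set above the floor with a difference of -0.28. The basic amino acid carrier Slc25a29 read 134 against 115, with further probe sets down to -0.51. Slc25a38, the glycine carrier used for haem synthesis, read 129 against 154, a difference of -0.24. Slc25a44, the carrier of branched-chain amino acids, had 233 against 218, but its dimmest probe set above the floor read 16.9 against 43.2. For Slc25a29 and Slc25a44 the sign therefore depended on the probe set. Slc25a2 and Slc25a18 lay below the floor, at 10.1 against 18.1 and 7.69 against 8.05.

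Carriers of cofactors and nucleotides went both ways, with 3 above 0 and 4 below. Slc25a42, which imports coenzyme A, had 201 in DEF/FOS and 299.9 in DEF/CT, a difference of -0.56 and beyond the spread of its range. Slc25a16, also linked to coenzyme A, had 444 against 485, a difference of -0.11. Slc25a26, which imports S-adenosylmethionine for methylation in the matrix, read 39.9 against 69.7. Its other probe set, just below the floor in mean signal, went the other way with 22.1 against 11.0, so the direction for Slc25a26 rests on 1 probe set. The 1.5-fold call for Slc25a26 was also lost with 32 added to each signal, where the difference was -0.49. Slc25a32, a carrier of folate and flavin cofactor, had 152 against 119.6, with differences of 0.36 and 0.37 in 2 probe sets and -0.31 in a dimmer one. The NAD carrier Slc25a51 had 541 against 498 and was above 0 in all 3 probe sets, from 0.13 to 0.32. The pyrimidine nucleotide carriers differed in opposite directions: Slc25a33 had 318 against 390.5 and Slc25a36 had 61.2 against 47.9, differences of -0.28 and 0.37.

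Among carriers for iron and glutathione, mitoferrin 1, Slc25a37, had 201 in DEF/FOS and 152 in DEF/CT. Mitoferrin 2, Slc25a28, the form of most non-erythroid tissues, had 142 against 135, differences of 0.42 and 0.09. The glutathione importer Slc25a39 had 5891 against 5453, and its 4 probe sets above the floor ran from 0.02 to 0.13. Its paralogue Slc25a40 read 42.9 against 43.9. Of these 4 carriers, only Slc25a37 differed by more than the spread between probe sets.

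By their brightest probe sets, the outer membrane members lay within the spread of their signal ranges. Mtch2, an insertase of the mitochondrial outer membrane, had 1967 in DEF/FOS and 1722 in DEF/CT, with 4 of 5 probe sets above 0 and a range from -0.21 to 1.20. Mtch1, its paralogue, had 139 against 141. Slc25a46, a regulator of mitochondrial shape, had 597 against 561, and its second probe set had the opposite sign. The highest value of Mtch2 came from a probe set of 31.2 against 13.7, close to the floor. A bright probe set of Mtch2 read 1286 against 858, which is 1.51-fold higher in DEF/FOS, and another read 325 against 267, a difference of 0.30.

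Of the members given no role here, Slc25a47, a carrier enriched in liver, had 4161 in DEF/FOS and 4082 in DEF/CT. Slc25a45 had 177 against 169.5. Both were near 0, at 0.04 and 0.08. Slc25a34 read 34.0 against 51.1, a difference of -0.57, and Slc25a53 read 21.5 against 26.1. Slc25a48 read 24.9 against 17.9, the latter below the floor, and was at least 1.29-fold higher in the DEF/FOS pool. Slc25a35 and Slc25a54 lay below the floor, at 9.54 against 23.0 and 7.94 against 7.76. Apart from Slc25a47 and Slc25a45, all members of this role lay at signals where the spread between probe sets was wide.

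Of the 14 members with at least 2 probe sets above the floor, 5 (35.7%) had all signs the same, against 49.3% of 4885 such genes. Slc25a10, Slc25a39 and Slc25a51 were higher in the DEF/FOS pool in all of theirs, and Slc25a4 and Slc25a30 lower. In the other 9 the probe sets disagreed, so a direction from 1 probe set is weak there. 

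**Figure D3:**
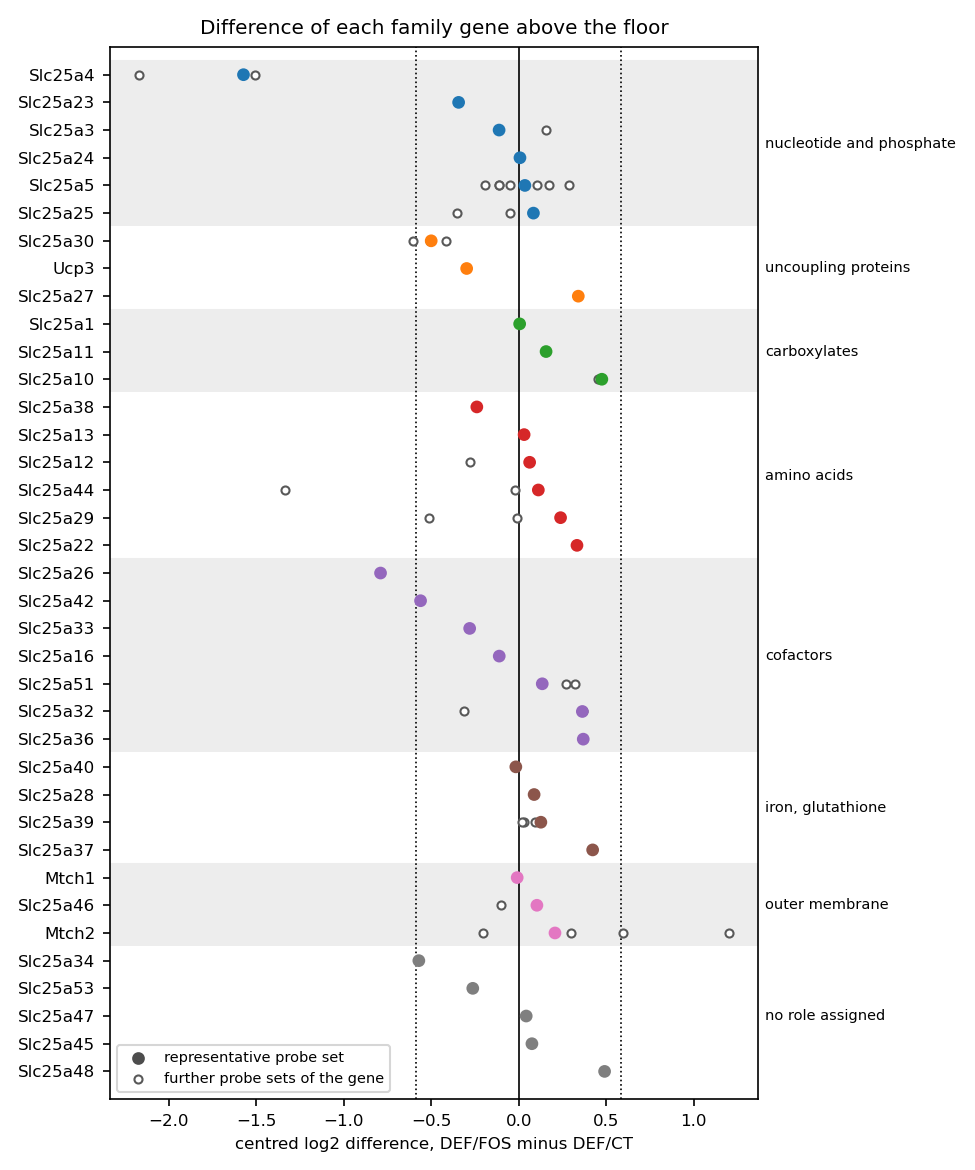
Centred log2 difference (DEF/FOS minus DEF/CT) of the representative probe set (filled, coloured by role) and of further probe sets above the floor (open) for the 37 family genes. Dotted lines mark 1.5-fold. The probe sets of Slc25a4 and Slc25a30 all lie below 0 and those of Slc25a10 above it, while those of Slc25a5 lie on both sides.

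Genes that import the carriers into mitochondria were compared beside them. Of the 15 genes of the TOM and TIM22 route and its chaperones, 14 had positive differences, where 49.9% of all genes did, and 0 passed 1.5-fold. Their median was 0.25, or 0.18 over 13 genes without the general chaperones Hspa8 and Hsp90aa1, beside 0.04 for the carriers. The kinase Agk, a TIM22 subunit, read 69.3 in DEF/FOS and 47.1 in DEF/CT. The channel Timm22 read 173 against 124 and the small chaperone Timm9 163 against 117. All 3 had another probe set of negative sign, as did several others of the 14. Hsp90aa1, which hands carriers to the outer membrane receptor, had 3468 against 2688. The list's median lay between 0.16 and 0.30 over the alternative settings, always above 0. The number of genes above 0 was 12 of 15 without the suffixed probe sets and 12 of 14 with the floor at the 75th percentile.

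Other transport proteins of the mitochondrial membranes had a median of -0.04 over 18 genes, with 9 above 0 and 9 below and 0 past 1.5-fold. The sodium/calcium exchanger Slc8b1 read 127 in DEF/FOS and 188 in DEF/CT, a difference of -0.55. The transhydrogenase Nnt had 647 against 491 and Ghitm, a protein of the inner membrane, 2250.0 against 1666, differences of 0.41 and 0.45. The sideroflexin Sfxn2 had 267 against 345, with probe sets of both signs. This list's median changed sign between settings, from -0.12 to 0.02.

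Enzymes that use the carried substrates had a median of 0.02 over 24 genes, 14 of them above 0. The haem synthesis enzyme Alas1, in the matrix, was 1.90-fold higher, at 2812 in the DEF/FOS pool against 1495. Malic enzyme Me1, which uses malate in the cytosol, was 1.48-fold higher, at 4225 against 2893. The aspartate aminotransferase Got1, of the malate-aspartate shuttle, was 1.70-fold lower, at 975 against 1676. The glutathione synthesis gene Gclc was 1.41-fold higher, at 3044 against 2176. Alas1 and Got1 were the only 2 of these 24 past 1.5-fold, 1 in each direction, where 6.75% of all genes were higher and 7.82% lower.

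Other cell type markers were set beside the family. Markers of Kupffer cells and macrophages had a median of 0.22 over 13 genes, with 9 above 0 and 4 below. Their summed signals were 5502 in DEF/FOS and 4789.8 in DEF/CT. Marco, at 131 against 61.6, was the only 1 of the 13 past 1.5-fold. Neutrophil markers had summed signals of 345 and 163.5 over 8 genes, of which 4 lay above the floor, 3 with positive differences and 1 with a negative one. The alarmin S100a8 read 147 against 33.8 and S100a9 110 against 35.1, and together they made up most of the DEF/FOS sum. That sum therefore does not describe the list as a whole. Elane, neutrophil elastase, read 20.0 against 24.9. Lymphocyte markers had summed signals of 369.7 and 980.2 over 9 genes, of which 4 lay above the floor, all with negative differences. Ighm, an immunoglobulin heavy chain gene, read 243 against 809, but its 5 probe sets above the floor ran from -1.72 to 0.23. Fat cell markers had summed signals of 3165 and 4814.5 over 9 genes. Most of both sums came from Elovl3, at 2834 against 4417, which hepatocytes also express. Endothelial and stellate cell markers had a median of -0.06 over 9 genes. The part of these cells in the differences of the carriers was not tested.

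**Figure D4:**
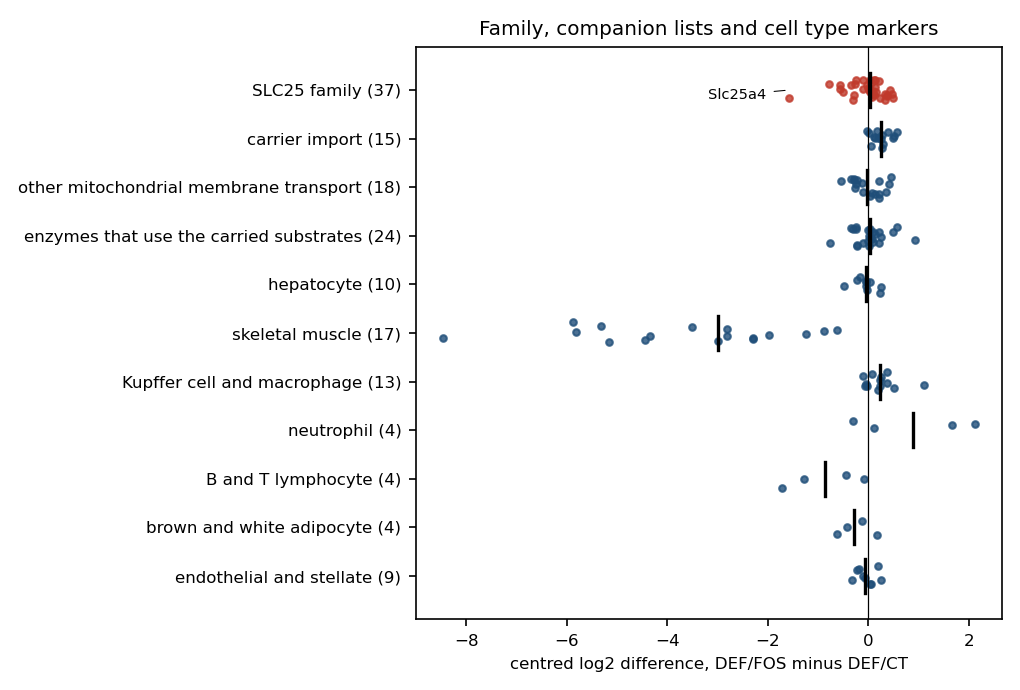
Centred log2 difference (DEF/FOS minus DEF/CT) of the genes above the floor in the family, 3 companion lists and 7 cell type marker lists, with the number of genes in brackets and the median as a bar. The family median is 0.04, the import list lies mostly above 0, and the skeletal muscle markers and Slc25a4 lie below it.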

How the data were processed

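Liver RNA of 2 pools, DEF/FOS and DEF/CT, was measured on 1 Affymetrix GeneChip array each. The authors deposited linear MAS5 intensities. The submitters' processing notes list GCOS and MAS5 and no version of either. The background correction and any filters of the authors are not given in the sources used here. Their trimmed mean, 2% left out at each end, was 100.0 on both arrays, so the authors' intensities are scaled. The table holds no detection calls.

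Probe sets were named from the platform annotation (34958 with 1 symbol, 932 with several and not used). Entrez identifiers of 34754 matched a RefSeq gene table of GRCm38.p6, used for names only, and 0 symbols changed. Log2 signals were subtracted, DEF/FOS minus DEF/CT, and centred on their median of -0.01. The floor, a mean log2 signal at the median of probe sets without the 64 controls, is no detection call. Folds use centred differences. Where 1 pool was below the floor, the fold is a bound against it. With 1 array per group there was no test. Members above the floor were described with both signals, those below with signals and no fold. From the other lists, up to 4 genes (companion lists) or 3 (markers) of largest difference could be named. Members, lists and the comparison with the spread between probe sets were chosen with earlier results of these data known. The procedure was checked on simulated data with planted changes larger than 2-fold and noise narrower than the spread between probe sets. That check does not cover the counts at 1.5-fold or at 1 SD. Python 3.11.15, numpy 2.4.6 and pandas 2.3.3 were used.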

Additional observations from a re-analysis of the deposited data

How the results depend on the processing

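The family was recomputed under 9 alternatives. Its median stayed above 0, from 0.0009 (median over each gene's probe sets) to 0.10 (no floor). In the first of these settings 19 of the 37 members were above 0, in place of 23. The count at least 1.5-fold lower was 2 and became 1 with the floor at the 75th percentile, 1 with an offset of 32, 1 without probe sets that carry an x, s or a suffix, 3 with quantile normalization (Slc25a42 at -0.59 added), 3 with no centring (Slc25a34 at -0.59 added) and 5 with no floor. The count at least 1.5-fold higher was 0 and became 1 with quantile normalization, from Slc25a48 at 0.64, and 3 with no floor. At 2-fold, no floor gave 3 higher and 3 lower. Without the suffixed probe sets 0 members were 2-fold lower, since the only other probe set of Slc25a4 lies below the floor. The added calls with no floor were members at signals under it. Of the 37 members, 26 kept their sign in every alternative that gave a value and 11 did not. The latter had small differences, with Slc25a29 at 0.24 the highest. Of 321 values, 320 moved by less than the SD between probe sets of their own signal range. The other was Slc25a3, at 0.16 in place of -0.11 without the suffixed probe sets, where that SD is 0.22. The log2 difference of Slc25a4, -1.57, ranged from -1.61 to -1.26 over 8 alternatives. No paired analysis was possible because each group has 1 array. Depth cannot be given for arrays, and signals near the floor have the widest spread between probe sets.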
